A study of Homo sapiens with 6 samples.

Results

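Polyamine synthesis and its control were followed through 7 genes, chosen by name with earlier results of these data known. They were found in the deposited tables by matching Ensembl gene IDs to the symbols ODC1, AMD1, SRM, SMS, SAT1, OAZ1 and AZIN1. All 7 were present among the 62703 gene IDs, and all 7 passed the filter that left 16082 genes for testing. RNA was sequenced from H929, a wild-type cell line grown from a human multiple myeloma, a tumour of plasma cells. There were 3 libraries from cells given 1 µM Mi-2, an inhibitor of the protease MALT1, for 24 h, and 3 from cells given the solvent DMSO for 24 h. The comparison asks how the mRNAs of this pathway differed between inhibitor and solvent in this 1 cell line, at 1 dose and 1 time.

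Polyamines are small positively charged amines that bind nucleic acids, and dividing cells need them for translation and growth. Ornithine decarboxylase (ODC1) makes putrescine from ornithine, S-adenosylmethionine decarboxylase (AMD1) makes the aminopropyl donor, and spermidine synthase (SRM) and spermine synthase (SMS) add aminopropyl groups in turn. The acetyltransferase SAT1 marks spermidine and spermine for export or oxidation, antizyme (OAZ1) binds ODC1 protein and delivers it to the proteasome, and antizyme inhibitor (AZIN1), an ODC1 relative without enzyme activity, binds antizyme in its place. ODC1 is a textbook target of the transcription factor MYC, and much of the control of ODC1, AMD1 and OAZ1 acts on translation or protein stability, which mRNA levels do not show.

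With Mi-2, AMD1 and SMS fell by 25.5% and 25.6% (95% intervals -36.7% to -12.3% and -36.8% to -12.4%), while no member rose. ODC1, SRM, SAT1 and AZIN1 had negative values that did not pass the threshold, and OAZ1 had a value close to 0. Of the 7 members, 2 were called lower with edgeR's quasi-likelihood test at an adjusted p under 0.05 (Benjamini-Hochberg over all genes tested), against 6.03% of all tested genes called lower, 5.02% called higher and 11.0% called in either direction. Before adjustment edgeR had 5 members lower and 0 higher at p under 0.05, and 14.1% of all tested genes lower. With any 1 library left out 0 or 1 members were called lower. Of all genes tested, 302 to 866 were then called lower, against 969 with all 6 libraries. Limma on log2(TPM + 1) called 0 members, where it called 2.73% of all genes it tested lower. Values for single genes are given below. The value was negative for 6 members, against 49.3% of all tested genes, and the members' median log2 fold change was -0.28 where the median of all tested genes was 0.00496. Across the 6 libraries, Pearson's r was 0.44 to 0.91 among the 6 members other than OAZ1. OAZ1 did not rise and fall with them (r from -0.61 to 0.16). The 7 genes take part in 1 pathway, were measured in the same 6 libraries and were chosen with earlier results of these data known. These counts therefore describe the members and are no test of the set. CPM, a gene's counts scaled to a fixed total per library, is relative to all RNA in that library. It does not show a change in total RNA per cell. Each library pools the RNA of many cells, so fewer cells in a given state and less RNA of a gene per cell cannot be told apart.

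Upstream sequence is shown for AMD1 and SMS, the members that fell, and for SRM, the enzyme that acts between them, from the RefSeq promoter table (GRCh38.p14), which matched 6 of the 7 symbols with 9 starts. The table's window reaches 250 bases before each start, and the printed stretch ends before the first start of the gene in GENCODE 29 where that lies further upstream. Capitals mark CACGTG, the E-box that MYC and its partners bind, and CCAAT or its reverse complement ATTGG. For AMD1 the first of 3 listed starts is shown, and its second start, whose window is not printed, holds a CCAAT box. The stretches are chr6:110874535-110874769 (plus strand) for AMD1, chrX:21940459-21940572 (plus strand) for SMS and chr1:11060025-11060268 (minus strand) for SRM.
AMD1: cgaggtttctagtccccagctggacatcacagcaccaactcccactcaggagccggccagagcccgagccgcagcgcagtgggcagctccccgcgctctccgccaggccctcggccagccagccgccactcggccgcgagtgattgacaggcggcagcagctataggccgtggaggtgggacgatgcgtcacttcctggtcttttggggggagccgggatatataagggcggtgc
SMS: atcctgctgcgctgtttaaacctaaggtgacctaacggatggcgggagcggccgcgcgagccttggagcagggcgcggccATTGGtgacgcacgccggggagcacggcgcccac
SRM: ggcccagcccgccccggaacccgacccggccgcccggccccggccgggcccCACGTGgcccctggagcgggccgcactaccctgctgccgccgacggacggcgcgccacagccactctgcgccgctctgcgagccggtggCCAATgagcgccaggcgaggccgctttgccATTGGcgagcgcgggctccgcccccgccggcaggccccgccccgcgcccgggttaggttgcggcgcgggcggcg

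Within the 250 bases before a start, CACGTG was found on either strand at 2 of the members' 9 starts, against 6.34% of 35116 promoters in the table. The matches began 199 bases before the start of SRM and 29 bases before the second listed start of ODC1. The window of that second start lies inside the ODC1 gene of GENCODE 29, and the window of the first start held no CACGTG. Neither AMD1 nor SMS held CACGTG in this window. The CCAAT box was found at 5 of the 9 starts (32.0% of all promoters), TATAAA at 0 of them (10.7%) and the κB consensus, the site of NF-κB, at 1, the second start of ODC1 (9.96%). Only the exact TATAAA was counted, so near matches, such as tatataa in the printed AMD1 stretch, were left out. The windows of AMD1 starts 1 and 3 nearly coincide. All motifs were searched on both strands, the E-box and κB matches of ODC1 did not overlap, and a match is a description of the sequence only.

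ODC1, which encodes the enzyme that commits ornithine to the pathway, lies on chromosome 2 from 10439968 to 10448504 (minus strand; GENCODE 29, GRCh38, as for the other positions). It was at 351, 375 and 306 CPM in libraries 1 to 3 of the DMSO group and at 269, 314 and 248 CPM in libraries 1 to 3 of the Mi-2 group. The groups overlapped, since Mi-2 library 2 stood above DMSO library 3, and library 2 was the highest in each group. The means were 344 ± 35.3 CPM for the DMSO libraries and 277 ± 33.5 CPM for the Mi-2 libraries (SD, n = 3), a log2 fold change of -0.31 ± 0.11 (SE; 95% interval -0.57 to -0.057) that did not pass (edgeR adjusted p = 0.11, unadjusted 0.0214). With no filter on low counts, edgeR called ODC1 lower (-0.32, adjusted p = 0.0325). Intervals here and for the other genes are for 1 gene at a time and are not adjusted, so one that lies below 0 can go with an adjusted p over the threshold.

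AMD1 encodes the decarboxylase whose product donates the aminopropyl groups for both spermidine and spermine, and lies on chromosome 6 from 110874770 to 110895713 (plus strand). Its levels were 112, 107 and 108 CPM in libraries 1 to 3 of the DMSO group and 69.3, 91.6 and 83.1 CPM in libraries 1 to 3 of the Mi-2 group. All Mi-2 libraries stood below all DMSO libraries, which lay within a narrow range, and Mi-2 library 1 was the lowest. From 109 ± 2.81 to 81.3 ± 11.3 CPM (SD, n = 3) the log2 fold change was -0.42 ± 0.11 (SE; 95% interval -0.66 to -0.19, edgeR adjusted p = 0.0319). Leaving out DMSO library 1, 2 or 3 or Mi-2 library 1 or 3 ended the call (edgeR adjusted p from 0.0586 to 0.105), while it held without Mi-2 library 2 (0.029). Limma on the log2 of the deposited TPM plus 1, which corrects for gene length, gave -0.41 and an adjusted p of 0.0524.

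SRM encodes spermidine synthase and lies on chromosome 1 from 11054584 to 11060024 (minus strand). It was at 226, 253 and 203 CPM in libraries 1 to 3 of the DMSO group and at 179, 205.5 and 192 CPM in libraries 1 to 3 of the Mi-2 group. The groups overlapped, because Mi-2 library 2 was slightly above DMSO library 3, and library 2 was again the highest of each group. The log2 fold change was -0.24 ± 0.10 (SE; 95% interval -0.47 to -0.012) and was not called (edgeR adjusted p = 0.163).

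SMS encodes spermine synthase, the enzyme of the last step, and lies on the X chromosome from 21940573 to 21994835 (plus strand). It was at 47.3, 58.3 and 53.1 CPM in libraries 1 to 3 of the DMSO group and at 35.4, 41.2 and 41.4 CPM in libraries 1 to 3 of the Mi-2 group. The groups did not overlap, and library 1 was the lowest of each. From 52.9 ± 5.49 to 39.3 ± 3.42 CPM (SD, n = 3), SMS fell by 0.43 on the log2 scale (SE 0.11, 95% interval -0.66 to -0.19, edgeR adjusted p = 0.0316). Leaving out DMSO library 2 or 3 or Mi-2 library 1 or 2 ended the call (edgeR adjusted p from 0.0589 to 0.127), as did limma on log2(TPM + 1) (-0.42, adjusted p 0.0794). It held without DMSO library 1 or Mi-2 library 3 (edgeR adjusted p 0.0281 and 0.0453).

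**Figure D1:**
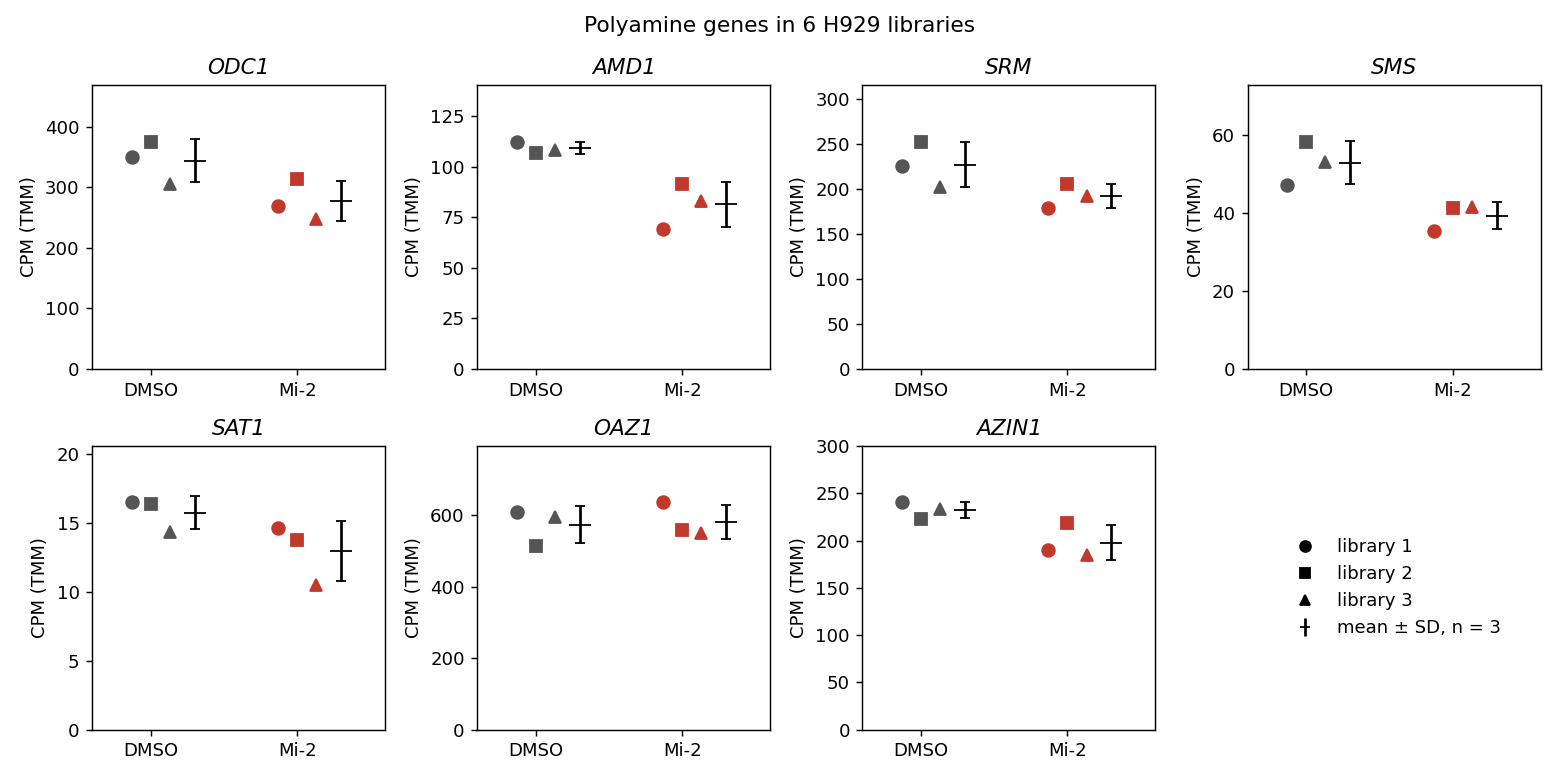
CPM, scaled by TMM, of the 7 members in each of the 6 libraries, with the mean and SD of each group (n = 3) beside the points; every axis starts at 0. The Mi-2 points of AMD1, SMS and AZIN1 lie below all DMSO points, and those of ODC1, SRM and SAT1 overlap them. For OAZ1, Mi-2 library 1 lies above all DMSO points and Mi-2 libraries 2 and 3 lie among them.

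SAT1, the acetyltransferase that starts polyamine breakdown and export, lies on the X chromosome from 23783173 to 23786226 (plus strand) and had the lowest levels of the 7, in CPM and per unit of length. It was at 16.5, 16.4 and 14.3 CPM in libraries 1 to 3 of the DMSO group and at 14.6, 13.7 and 10.5 CPM in libraries 1 to 3 of the Mi-2 group. Library 3 was the lowest of each group, and Mi-2 library 1 stood just above DMSO library 3. The log2 fold change of -0.28 ± 0.15 (SE) had the widest interval of the 7, -0.61 to 0.048, and was not called (edgeR adjusted p = 0.254).

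OAZ1 encodes antizyme, the protein that removes ODC1 protein, and lies on chromosome 19 from 2269509 to 2273490 (plus strand). Antizyme is made only when ribosomes shift reading frame at a stop codon of the OAZ1 mRNA, and polyamines raise the share that shift. The site is printed because it is where the known control of OAZ1 acts. It lies at chr19:2271425-2271463 (GRCh38, plus strand, GENCODE 29 transcript OAZ1-209, exon 2), with the stop codon that ends the first frame after 68 codons in capitals.
OAZ1: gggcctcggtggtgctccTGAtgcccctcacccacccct
In 2 protein-coding OAZ1 models of GENCODE 29 the first base of this stop codon is left out of the transcript, which joins both frames. Gene counts do not show which share of ribosomes shifts here.

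OAZ1 mRNA itself did not differ between the groups beyond its spread. It was at 610.3, 514 and 597 CPM in libraries 1 to 3 of the DMSO group and at 636, 558 and 551 CPM in libraries 1 to 3 of the Mi-2 group. The ranges of the groups lay over each other, and the spread within each group was larger than the difference of the means, 574 ± 52.0 and 582 ± 47.2 CPM (SD, n = 3). The log2 fold change was 0.020 ± 0.10 (SE; edgeR adjusted p = 0.927), and its 95% interval, -0.21 to 0.25, spans changes from -13.4% to 18.7%. The value was -0.054 when DMSO library 2 was left out and -0.048 when Mi-2 library 1 was left out, so OAZ1 had no stable direction.

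AZIN1, whose product frees ODC1 protein from antizyme, lies on chromosome 8 from 102826357 to 102893864 (minus strand). It was at 240.4, 223 and 234 CPM in libraries 1 to 3 of the DMSO group and at 190.1, 219 and 184.5 CPM in libraries 1 to 3 of the Mi-2 group. The ranges did not overlap, but Mi-2 library 2 came close to DMSO library 2. The log2 fold change was -0.23 ± 0.09 (SE; 95% interval -0.44 to -0.026) and did not pass (edgeR adjusted p = 0.137). Ranges were separate and lower in 3 of the 7 members (AMD1, SMS and AZIN1), against 16.6% of all tested genes.

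**Figure D2:**
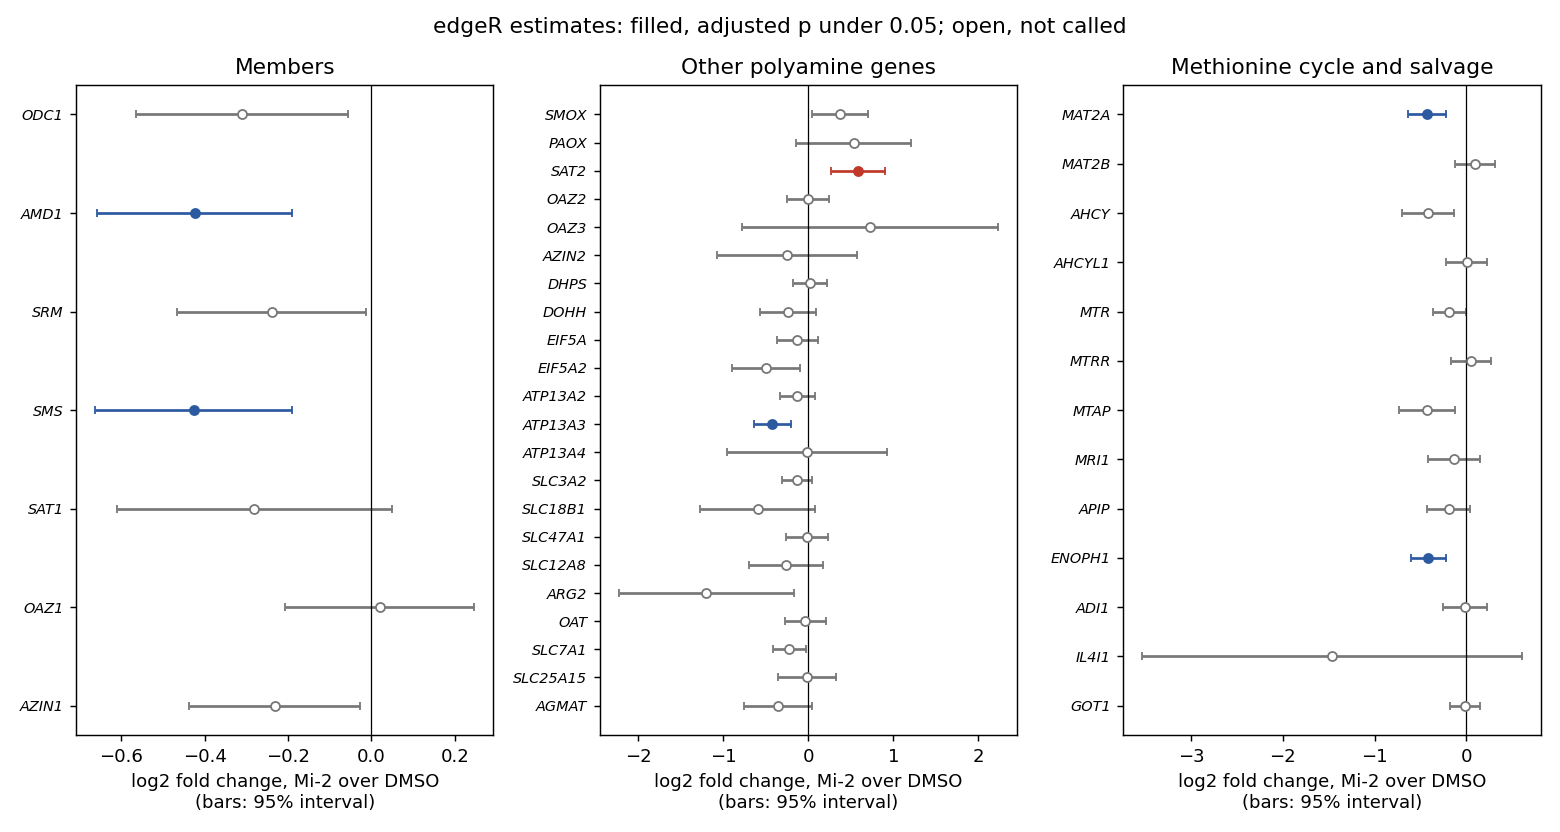
The log2 fold change of Mi-2 over DMSO for each tested gene, from edgeR, with its 95% interval; filled points have an adjusted p under 0.05 and open points do not, and the 3 panels have different horizontal scales. AMD1 and SMS are filled among the members, SAT2 (higher) and ATP13A3 (lower) among the other polyamine genes, and MAT2A and ENOPH1 (both lower) among the methionine genes.

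Per unit of length, the members' levels spanned a wide range, and their order was led by the control gene OAZ1. In TPM, which is corrected for gene length, OAZ1 stood at 1112 to 1360 over the 6 libraries and was above 99.3% of the tested genes. SRM followed at 226 to 318 TPM, and ODC1 at 139 to 221 TPM. SRM was 1.4 times as high as ODC1 with DMSO and 1.44 times with Mi-2, with ranges that did not overlap within either group. AZIN1 (59.4 to 79.6 TPM) came next. AMD1 (30.1 to 45.5 TPM) and SMS (28.9 to 48.6 TPM) could not be ordered, since their ranges overlapped in both groups. SAT1 was last at 15.9 to 26.4 TPM, below SMS in each group. All other neighbours in the order had separate ranges within DMSO and within Mi-2.

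**Figure D3:**
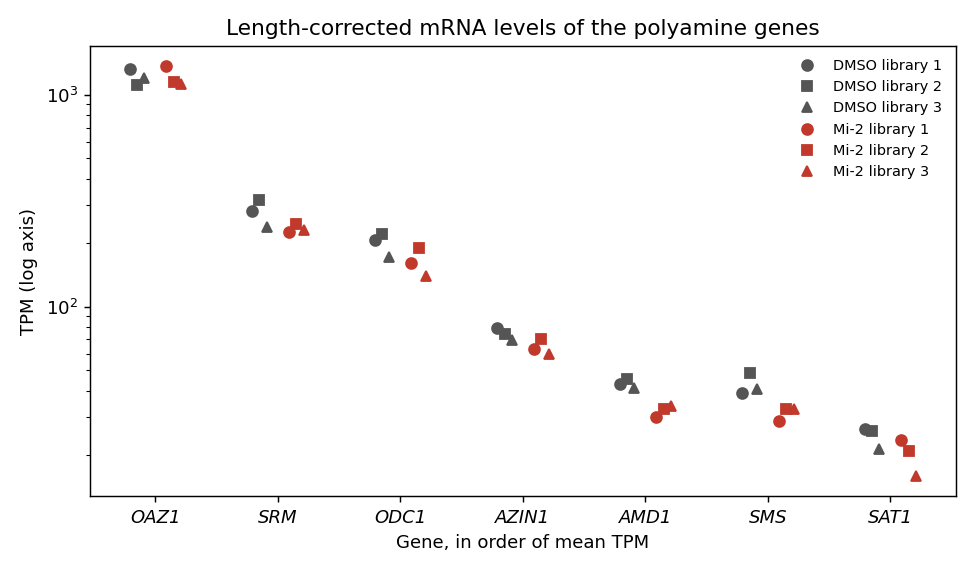
Deposited TPM of each member in each library, on a log axis, with genes in order of their mean. OAZ1 lies at 1112 TPM or more in all 6 libraries, and only AMD1 and SMS, next to each other, have overlapping ranges within a group.

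Ratios of TPM within a library compare members with each other. ODC1 stood at 0.156, 0.199 and 0.143 of OAZ1 in DMSO libraries 1, 2 and 3 and at 0.118, 0.164 and 0.124 in Mi-2 libraries 1, 2 and 3, and the ranges overlapped. AZIN1 stood at 0.0605, 0.0667 and 0.0581 of OAZ1 with DMSO and at 0.0466, 0.0611 and 0.0528 with Mi-2, again with overlap. Library 2 had the highest value of both ratios in each group. The ratio of SRM to SMS was 5.85 to 7.19 with DMSO and 7.04 to 7.8 with Mi-2, so Mi-2 library 3 fell within the DMSO range. SAT1 was 0.0435 ± 0.00276 of the sum of the 4 synthesis genes with DMSO and 0.0436 ± 0.00829 with Mi-2 (SD, n = 3). The means of this SAT1-to-synthesis ratio lay closer together than the libraries of either group. SAT1 is the only breakdown gene in the ratio, so it does not stand for polyamine breakdown as a whole. The other tested genes listed for breakdown had positive values, and of them only SAT2, described below, was called. The oxidases SMOX (0.38 ± 0.15, SE) and PAOX (0.53 ± 0.30) did not pass (edgeR adjusted p 0.131 and 0.289). Likeness to SAT1 in sequence does not show that SAT2 acts on polyamines, and its activity was not measured.

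Other genes of polyamine metabolism were called about as often as tested genes in general. Of 28 such genes listed, 22 could be tested, and the 6 left out had at most 10 counts in any library. SAT2 rose and ATP13A3 fell, which is 1 call in each direction, and the median log2 fold change of the 22 was -0.13. The share called, 9.09%, is near the background of 11.0%. Values were negative for 16 of the 22, against 49.3% of all tested genes. CPM ranges were separate and lower for 5 and separate and higher for 2, against 16.6% and 15.7% of all tested genes.

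SAT2, a relative of SAT1 in sequence, was at 10.9, 8.31 and 10.9 CPM in libraries 1 to 3 of the DMSO group and at 15.6, 14.2 and 15.4 CPM in libraries 1 to 3 of the Mi-2 group. All Mi-2 libraries were above all DMSO libraries (log2 fold change 0.58 ± 0.14 SE, edgeR adjusted p = 0.03). The call held without DMSO library 1 and was lost when any of the other 5 libraries was left out (edgeR adjusted p from 0.0541 to 0.103).

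ATP13A3 encodes a membrane pump linked to polyamine uptake. It was at 189, 192 and 187 CPM in libraries 1 to 3 of the DMSO group and at 129, 161 and 134 CPM in libraries 1 to 3 of the Mi-2 group. The groups did not overlap (-0.42 ± 0.10 SE, edgeR adjusted p = 0.0257), and leaving out any library but Mi-2 library 2 ended the call (edgeR adjusted p from 0.0575 to 0.105). In limma on log2(TPM + 1), which gave 0.49 for SAT2 and -0.34 for ATP13A3, neither was called (adjusted p 0.0931 and 0.187).

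The most abundant of the uncalled genes include those around hypusine, the spermidine-derived residue that EIF5A needs to work in translation, and around amine and ornithine transport or supply. EIF5A itself (674 ± 138 TPM with DMSO and 604 ± 20.2 TPM with Mi-2, SD, n = 3) had a log2 fold change of -0.13 ± 0.11 (SE). DHPS, which starts the modification, had 0.022 ± 0.09. SLC3A2, the heavy chain of several amino acid transporters, had -0.13 ± 0.08, and OAT, a mitochondrial enzyme that uses ornithine, -0.033 ± 0.11. None of these 4 passed (edgeR adjusted p from 0.298 to 0.906).

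AMD1 draws on S-adenosylmethionine, and the methylthioadenosine released by SRM and SMS is recycled to methionine. Of 15 genes listed for this supply and salvage, 13 could be tested, 2 fell and 0 rose. The 2 are 15.4% of those tested, against 11.0% of all tested genes called in either direction and 6.03% called lower, and the median log2 fold change of the 13 was -0.19. At an unadjusted p under 0.05 edgeR had 5 of the 13 lower and 0 higher, where 14.1% of all tested genes were lower. DESeq2 called 4 lower and 0 higher at its adjusted threshold, where it called 7.97% of all genes lower.

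MAT2A, the enzyme that makes S-adenosylmethionine outside the liver, was at 448, 387 and 407 CPM in libraries 1 to 3 of the DMSO group and at 289.7, 312 and 322 CPM in libraries 1 to 3 of the Mi-2 group. All Mi-2 libraries were below all DMSO libraries (-0.43 ± 0.09 SE, edgeR adjusted p = 0.0182). Leaving out DMSO library 1 or 3 or Mi-2 library 1 ended the call (edgeR adjusted p from 0.0551 to 0.079).

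ENOPH1, an enzyme of methylthioadenosine salvage, was at 54.8, 58.0 and 53.4 CPM in libraries 1 to 3 of the DMSO group and at 39.2, 41.6 and 44.0 CPM in libraries 1 to 3 of the Mi-2 group. Its groups did not overlap (-0.41 ± 0.08 SE, edgeR adjusted p = 0.0154), and leaving out DMSO library 2 or Mi-2 library 1 ended its call (edgeR adjusted p 0.0696 and 0.0728), as did limma on log2(TPM + 1) (adjusted p 0.0628).

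Of the abundant uncalled genes, AHCY, which clears S-adenosylhomocysteine, stood at 431 ± 50.4 CPM in the DMSO group and at 323 ± 47.4 CPM in the Mi-2 group (SD, n = 3). Its value was close in size to that of MAT2A and its ranges were separate, but it did not pass (-0.42 ± 0.13 SE, edgeR adjusted p = 0.0668). MTRR (0.055 ± 0.10 SE), MAT2B, the regulatory partner of MAT2A (0.10 ± 0.10 SE), and ADI1 (-0.016 ± 0.11 SE) had values close to or within 1 SE of 0 (edgeR adjusted p from 0.563 to 0.945).

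The genes whose levels followed each called member most closely were looked for among 5789 others whose log2 CPM averaged 5 or more. For AMD1 these were EIF3I, MRPS9 and SNHG15, with Pearson's r of 0.993, 0.992 and 0.991 over the 6 libraries. For SMS they were GPT2, DNAJC11 and HMGB1P5, with r of 0.996, 0.995 and 0.994. The 6 points fall into 2 treatment groups and share their libraries, and values this high are the extremes of 5789 comparisons. HMGB1P5 is a pseudogene whose reads may be shared with its parent gene. Among the members, r was 0.88 between AMD1 and SMS, 0.91 between ODC1 and SRM and -0.61 between SRM and OAZ1, over the same 6 libraries.

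The sources of the reads and the scale of the counts bear on these values. Total estimated counts ran from 19980689 to 23756745 per library. All 6 sample titles end in "bio rep 1", and no label names separate cultures, so the p-values cover the spread among these libraries alone, which may be technical. Named pseudogene copies of AMD1, SRM, SMS and OAZ1 held at most 0.5 TPM, far below their parents, though reads that fit both are divided by estimation. The counting's use of strand is not given in the sources used here. OAZ1 shares 251 bases with JSRP1 on the other strand, at up to 7.38 TPM, and AZIN1-AS1, at up to 4.57 TPM, lies across part of AZIN1. Counts divided by TPM, relative to the library's median over 7304 genes, track the length that the authors' software gave a gene in each library. This relative length varied from 0.935 in Mi-2 library 1 to 1.1 in Mi-2 library 2 for AMD1, and within 0.962 to 1.03 for the other 6 members.

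H929 carried the plasma cell markers fixed for checking its identity, with 9 of 10 at over 100 TPM in at least 1 library and CD27 at no more than 0.25 TPM. Of the 9, SDC1 and CD38 fell (log2 fold changes -0.69 ± 0.15 and -0.86 ± 0.21, SE, edgeR adjusted p 0.018 and 0.0296) and IRF4 and MZB1 rose (0.35 ± 0.09 and 0.70 ± 0.11, adjusted p 0.0441 and 0.00576). Of 24 markers of other cell types, 19 were too low to test, and CD3D, COL3A1, PPBP and PF4 had no count in any library. CD3E, PECAM1 and KRT18 rose with Mi-2 (log2 fold changes 0.50 ± 0.11, 0.35 ± 0.10 and 1.07 ± 0.18, SE). The summed level of the 24 was 93.9 to 113 CPM with DMSO and 132 to 152 with Mi-2. Most of that sum came from CD3E, PECAM1 and KRT18. Their means, scaled by TMM, were 29.5, 64.0 and 7.3 CPM with DMSO and 41.7, 81.7 and 15.3 CPM with Mi-2. The part of these marker changes in the polyamine results was not tested.

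**Figure D4:**
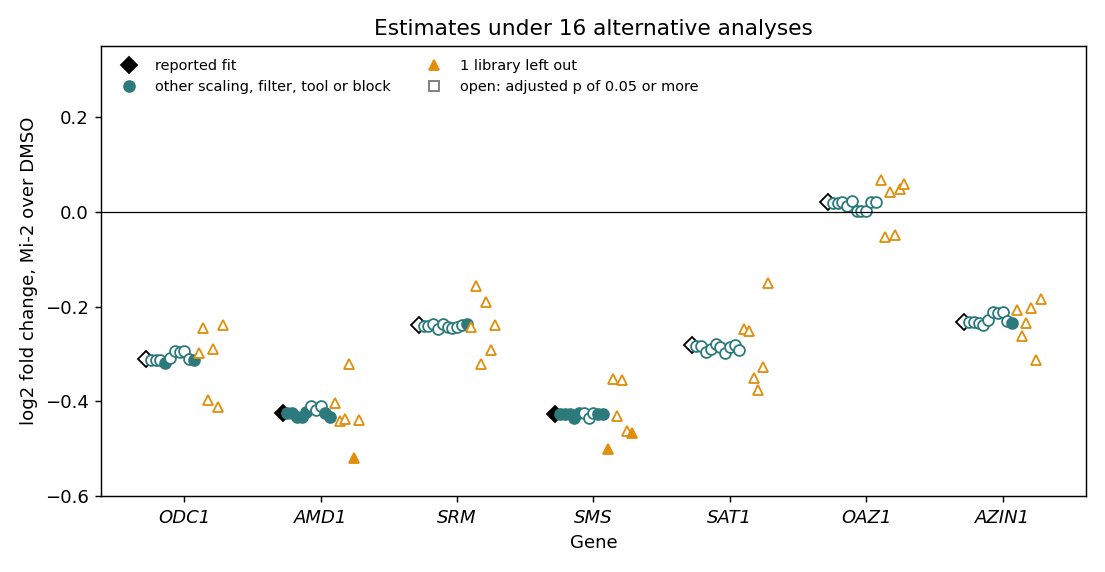
The log2 fold change of each member in the reported fit and under 16 alternatives, of which 6 leave out 1 library; filled points have an adjusted p under 0.05. Points of ODC1, AMD1, SRM, SMS, SAT1 and AZIN1 are negative throughout, those of OAZ1 lie on both sides of 0, and most triangles of AMD1 and SMS are open.

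Across these 16 alternatives, the 6 members other than OAZ1 were negative in each. AMD1 ranged from -0.52 to -0.32 and was called in 8 of them, and SMS ranged from -0.50 to -0.35 and was called in 9. ODC1 ranged from -0.41 to -0.24 and was called in 2, SRM from -0.32 to -0.16 and AZIN1 from -0.31 to -0.18, each called in 1, and SAT1 from -0.38 to -0.15, called in 0. The sign and rough size of the changes in AMD1 and SMS thus varied little over these alternatives, while their calls did vary. All 16 draw on the same 6 libraries, in which the ranges of AMD1 and SMS were separate. The constant sign therefore adds little to the reported fit. In limma on log2(TPM + 1) with no TPM filter, 0 genes of any kind were called, so no member could stand out there.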

How the data were processed

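Paired-end RNA-seq of H929 cells was processed by the authors, and the submitters' processing notes name fastp 0.19.5, HISAT2 2.1.0, StringTie 2.1.0, RSEM 1.3.3 and build GRCh38.p13 without roles. The authors deposited a table of estimated counts per gene, not scaled between libraries, and TPM values, scaled for gene length, with the same sum in each library. Symbols matched 62625 of 62703 IDs.

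Estimated counts were rounded, genes filtered with filterByExpr (minimum count 10, total 15), libraries scaled by TMM, and Mi-2 compared with DMSO by the quasi-likelihood test of edgeR 4.0.16 (R 4.3.3) over 16082 genes. Intervals are 95%. Standard errors are the absolute log2 fold change over the square root of F. The biological coefficient of variation was 14.2%, so small changes could go uncalled in abundant genes as well as in low ones. TPM fits (mean TPM of at least 1) give fold changes of log2(TPM + pseudocount), smaller than the true change for low genes. Within groups, pairs of libraries differed by 16.6 to 23.4 chi-square per degree of freedom, so none was a copy.

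Members and lists were chosen with earlier results of these data known. Named genes are the 7 members, called genes of both further lists with the 4 uncalled ones of highest mean TPM in each, and the 3 genes with the highest r to each called member (log2 CPM with a prior count of 2). Alternatives were RLE scaling, DESeq2 1.42.0, limma-voom (limma 3.58.1), other filters, TPM fits, removal of immunoglobulin genes and the 20 highest genes, a block on the library number, and each library left out.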

Additional observations from a re-analysis of the deposited data

How the results depend on the processing

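With every low-count gene kept, edgeR called 1221 genes higher and 1541 lower, ODC1 also passed (-0.32), and 5 methionine genes were called lower. DESeq2 called 1047 genes higher and 1282 lower, and 4 methionine genes lower. In limma on log2(TPM + 1), log2(TPM + 0.1) and log2(TPM + 1) with no TPM filter, 229, 249 and 0 genes were called higher and 381, 398 and 0 lower, with 3157, 3191 and 3808 at an unadjusted p under 0.05. There 0 members were called (2, 2 and 3 at an unadjusted limma p under 0.05, while edgeR and DESeq2 called 2), with AMD1 at -0.41, -0.42 and -0.41 and SMS at -0.42, -0.43 and -0.42. Other polyamine genes had 0 calls in either direction, and methionine genes 1, 1 and 0 lower.

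With the library number as a replicate block, 1791 genes were called higher and 2035 lower, and 5 members lower: AMD1, SMS, ODC1 (-0.31), SRM (-0.24) and AZIN1 (-0.23), with 3 other polyamine and 4 methionine genes lower. The labels name no pairs, so the reported fit did not pair libraries by number. Same-numbered libraries correlated at 0.059 to 0.409 in their deviations from the group means, and 5 of 6 libraries correlated best with their own number. Whether the numbers mark pairs cannot be told from the labels.

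With 1 library left out in turn, 216 to 715 genes were called higher and 302 to 866 lower, 0 to 1 members lower, 0 to 1 other polyamine genes in each direction and 0 to 3 methionine genes lower. AMD1 ran from -0.52 to -0.32, SMS from -0.50 to -0.35 and OAZ1 from -0.054 (without DMSO library 2) to 0.066, with -0.048 without Mi-2 library 1. RLE scaling, limma-voom, a filter of 1 CPM and removal of immunoglobulin and the highest genes changed no member's call. The cause of these differences was not tested.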
